A study of Mus musculus with 4 samples.

Results

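Acan encodes aggrecan, the large proteoglycan that fills the cartilage matrix. Open chromatin at this gene was described as all ATAC-Seq peaks whose summit lay in the gene body or within 100 kb of either end of it. There were 131 such peaks among the 485134 peaks in the 4 lists. The study searched for enhancers of Sox9 in primary chondrocytes from the ribs of newborn mice. Cho names 2 libraries of such cells for which no genotype is given, replicates 1 and 2, called Cho 1 and Cho 2 here. WT is a library from wild-type mice, and the double deletion is a library that carries E160(delta/delta);E308(delta/delta), the homozygous loss of 2 enhancers upstream of Sox9. The deletions were made in C57BL/6J embryos by genome editing, so they were present in all tissues and not in chondrocytes alone, and WT and deletion mice came from crosses of heterozygotes. Cells were used within 2 passages, and whether a library pooled several animals was not given in the sources used here. The window held 13 peaks in Cho 1, 56 in Cho 2, 21 in WT and 41 in the double deletion. As WT and the double deletion are 1 library each, a comparison of them sets 2 libraries side by side and carries no test.

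Aggrecan carries many chains of chondroitin sulphate and keratan sulphate, whose charge draws water into cartilage and lets it resist compression. It binds to hyaluronan, and link proteins of the Hapln family hold the complex together. In chondrocytes Acan is a known target of the transcription factors Sox9, Sox5 and Sox6, and an enhancer about 10 kb upstream of the gene is well known. ATAC-Seq shows where chromatin is open to the Tn5 transposase. It does not show which gene a site acts on, or whether it acts as an enhancer, and in a bulk library fewer open cells and less opening per cell cannot be told apart.

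Acan lies on the plus strand of chromosome 7, from 86198369 to 86259985 in NCBIM37 (mm9), with 17 exons. Positions are given here as the distance of a summit from its transcription start site (TSS), negative upstream. The window held 3 more annotated genes of interest. Gm16936, a long non-coding RNA, starts 0.16 kb upstream of Acan and runs away from it on the opposite strand, from 86198209 down to 86162939. Hapln3, a link protein gene, lies just downstream on the minus strand and has its TSS at +77.53 kb. Mfge8, the gene of a secreted glycoprotein that binds integrins, is also on the minus strand and has its TSS at +95.58 kb. Intron 1 of Acan takes up the first part of the gene, to +28.71 kb.

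Sequence at the sites on which the results turn is shown first. Each line gives a WT summit with the 75 bases on either side, from the plus strand of NCBIM37. The sites are the strongest WT peak, the peaks inside Gm16936 more than 1 kb upstream of the TSS and the strongest peak in intron 1. Capitals mark matches to a SOX, AP-1 or RUNX pattern as spelled out below, and a line in lower case throughout had none. Some of these patterns are looser than the usual motif, as stated there.
−62.98 kb, chr7:86135316-86135466: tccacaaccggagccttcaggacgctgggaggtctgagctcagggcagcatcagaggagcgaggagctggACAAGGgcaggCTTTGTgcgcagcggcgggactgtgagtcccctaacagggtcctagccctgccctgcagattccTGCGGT
−31.85 kb, chr7:86166446-86166596: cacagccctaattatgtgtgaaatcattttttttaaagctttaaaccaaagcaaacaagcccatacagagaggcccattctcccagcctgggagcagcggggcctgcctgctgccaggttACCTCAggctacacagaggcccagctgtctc
−10.60 kb, chr7:86187699-86187849: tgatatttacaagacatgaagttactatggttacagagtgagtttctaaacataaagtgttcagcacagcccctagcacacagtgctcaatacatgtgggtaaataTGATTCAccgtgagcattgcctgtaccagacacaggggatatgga
−9.50 kb, chr7:86188791-86188941: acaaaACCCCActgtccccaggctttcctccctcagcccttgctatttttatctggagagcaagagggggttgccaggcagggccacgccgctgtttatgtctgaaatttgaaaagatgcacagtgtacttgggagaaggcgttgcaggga
+27.49 kb, chr7:86225788-86225938: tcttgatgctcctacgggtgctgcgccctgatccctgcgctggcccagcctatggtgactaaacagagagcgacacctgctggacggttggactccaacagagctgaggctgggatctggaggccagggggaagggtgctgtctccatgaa

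The site at −62.98 kb held 2 hexamers facing each other, ACAAGG and CTTTGT, with 5 bases between them. CTTTGT is the SOX core ACAAAG on the other strand. ACAAGG is not a SOX core and fits only the looser ACAANG that was allowed in a pair. Inverted pairs of SOX motifs are known as a form of Sox9 binding site in cartilage genes. The pair was 17 bases long and ran from −62983 to −62967 bp. The summits of Cho 1 and WT lay inside it, that of the double deletion lay 2 bp outside, and that of Cho 2 lay 20 bp outside. Of the 21 WT peaks of the window this was the only peak with such a pair within 25 bp of the summit. Among all 90971 WT peaks 50 had such a pair, a share of 0.0550%. A match of letters is a description and does not show binding.

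The promoter of Acan is shown as well, because the peak there was weaker than the strongest distant peaks. It was taken from RefSeq on GRCm38 (mm10), plus strand, from 250 bases before to 50 after the RefSeq start, which lies 257 bp upstream of the TSS used for distances. Capitals mark GC boxes (GGGCGG on either strand), the motif of Sp1-type factors.
Acan promoter, chr7:79052976-79053275: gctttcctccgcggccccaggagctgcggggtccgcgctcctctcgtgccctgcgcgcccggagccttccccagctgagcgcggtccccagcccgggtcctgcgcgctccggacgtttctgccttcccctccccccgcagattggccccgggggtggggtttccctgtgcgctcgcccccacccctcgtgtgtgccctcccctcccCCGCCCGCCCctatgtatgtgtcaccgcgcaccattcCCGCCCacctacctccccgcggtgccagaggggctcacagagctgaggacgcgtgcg

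Of these 300 bases, 74.0% were G or C. The promoter held 3 GC boxes, some of them overlapping, and 35.7% of 32851 RefSeq promoters held at least 1. No TATAAA was found in these letters.

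**Figure D1:**
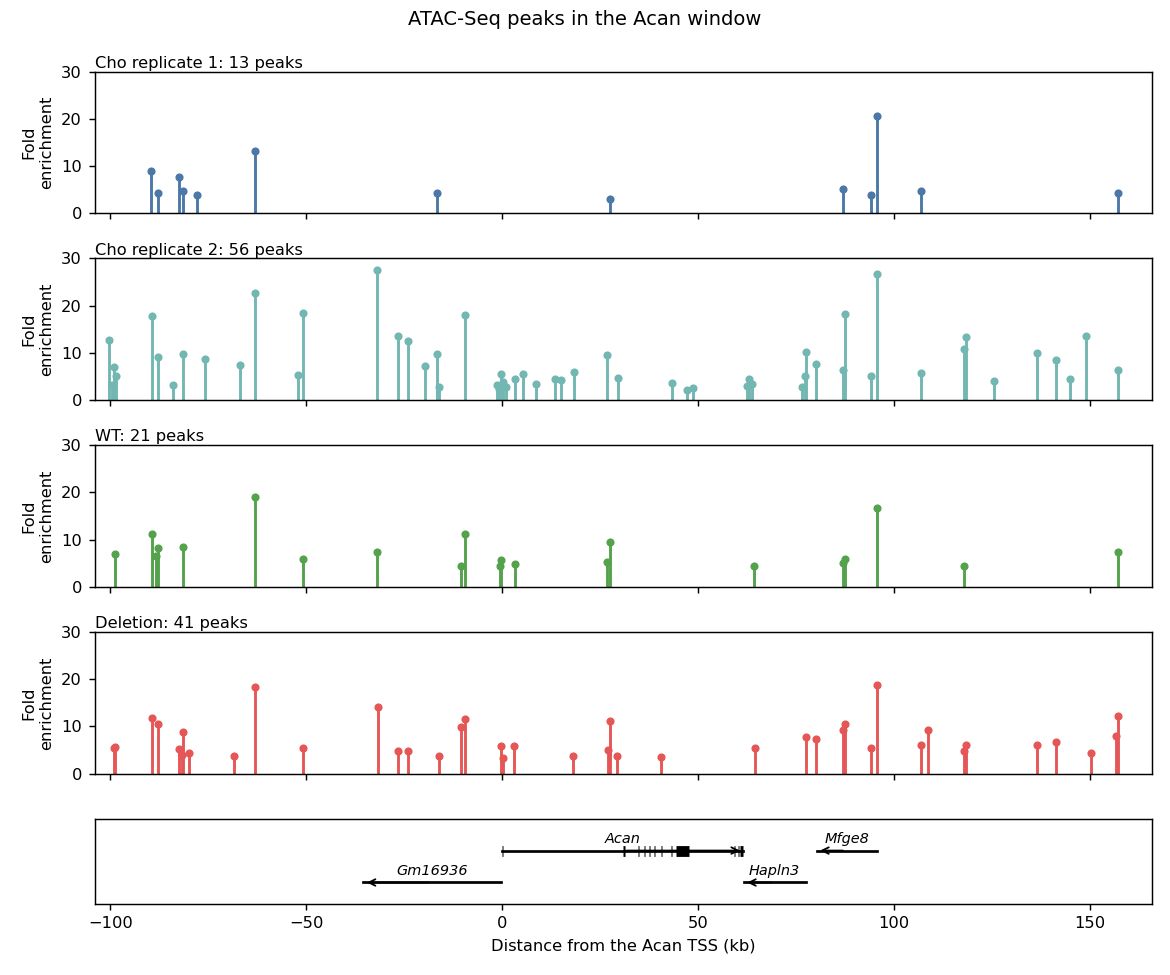
Peaks of the Acan window in each of the 4 libraries. The horizontal axis is the distance of the summit from the Acan TSS in kb, the height of each line is the fold enrichment as deposited, and the lowest panel shows the 4 genes with an arrow for their direction and thick blocks for the exons of Acan. High peaks at −63.0 kb and +95.6 kb recur in all 4 libraries, while the peaks near the TSS are low and are missing in Cho 1.

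Fold enrichment, the value deposited for each peak, is the number of reads piled up at the summit relative to the background, with 1 added to each. In Cho 1 every peak was set against a single library-wide background. In the other 3 lists the background was local. In the Acan window the local background of Cho 2 was 3.71 times the library background at the median peak and 11.9 times at the most, against a median of 1.27 over all its peaks. In WT the median was 2.44 in the window and 1.62 over all peaks, and in the double deletion 1.24 and 1.29. A high local background lowers fold enrichment, so a second measure, the scaled pileup, is given beside it at many sites. It is the summit pileup divided by the most frequent background of the library.

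Peaks were dense around Acan in Cho 2. There the window held 21.4 peaks per 100 kb, and only 1.73% of 18205 protein-coding genes had as many or more in the same kind of window, where the median was 9.02. This density was not particular to Acan. In Cho 2, Col2a1 and Col11a1 had 22.3 each, Col11a2 21.1 and the fibroblast or osteoblast marker Col1a1 21.2. The median of the 9 cartilage matrix genes listed below was 17.4, and Col9a2 had 10.7. The double deletion had 15.7 per 100 kb (median of all genes 10.4, 19.1% at or above). WT had 8.03 (median 5.76, 31.1% at or above). Cho 1 had 4.97 (median 4.36, 40.6% at or above). The lists differed in depth in the same direction for 3 of the libraries. The background gave a depth of 20816 tags for each Mb of genome in Cho 2, of 8697 in the double deletion and of 4622 in WT, but of 6841 in Cho 1, which had the fewest peaks in the window. These depths are the most frequent background divided by the width of the narrowest peak in the list. That width was taken as the fragment length, which was not tested. The part of depth and peak-calling settings in the peak counts was not tested either.

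**Figure D2:**
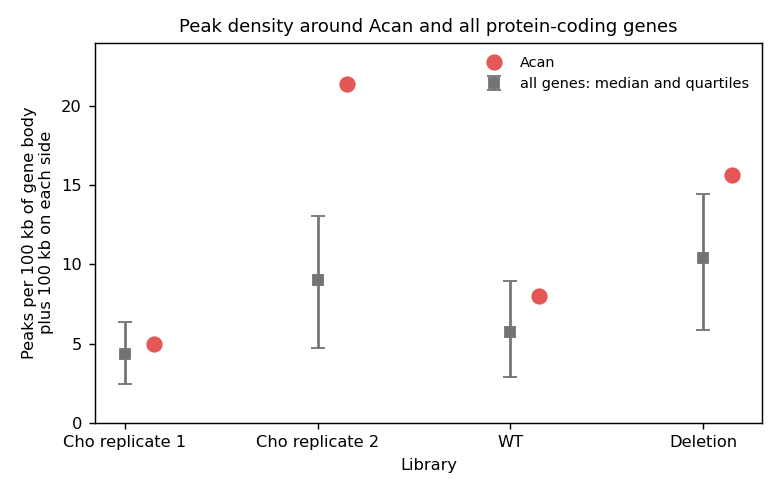
Peak density around Acan and around all protein-coding genes. The vertical axis gives peaks per 100 kb of gene body plus 100 kb on each side, red circles are Acan, and grey squares with bars are the median and quartiles of 18205 genes. Acan lies above the upper quartile in Cho 2 and the double deletion and within the quartiles in Cho 1 and WT.

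Most peaks of the window lay away from the promoter. In WT, 10 peaks were upstream, 2 lay within 1 kb of the TSS, 3 in the rest of the gene body and 6 downstream. In the double deletion the numbers were 17, 2, 6 and 16, and in Cho 2 they were 21, 4, 11 and 20. Cho 1 had 7 peaks upstream, 1 in the gene body and 5 downstream, and none within 1 kb of the TSS. The median fold enrichment of WT peaks was 7.82 upstream and 5.51 downstream.

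Peaks were joined into sites where their intervals met at the same distance from the TSS. The 131 peaks made 63 sites. Of these, 8 were called in all 4 libraries, 11 in 3, 13 in 2 and 31 in 1. Cho 2 alone accounted for 24 of the sites called once, the double deletion for 6 and Cho 1 for 1. Those of Cho 2 include the site at −100.22 kb, where the other libraries had peaks just outside their windows. No site was called in WT alone, and each of the 21 WT peaks met a peak of Cho 2. Of the 13 peaks of Cho 1, 12 met a peak of Cho 2. The list of Cho 2 is on another genome build, so no share over all peaks can be set beside these counts, and nothing particular to Acan can be read from them. Over the whole genome the lists held 76242 peaks in Cho 1, 148330 in Cho 2, 90971 in WT and 169591 in the double deletion, so Cho 2 had the most peaks at Acan although its list was not the longest.

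Of the 8 sites called in all 4 libraries, 4 lay upstream beyond Gm16936. The site at −62.98 kb was intergenic. Its fold enrichment was 13.1 in Cho 1, 22.6 in Cho 2, 19.1 in WT and 18.2 in the double deletion. Its scaled pileup was 21.9, 280.1, 130.4 and 94.2 in the same order. By scaled pileup it ranked first of the window in Cho 2 and WT and second in Cho 1 and the double deletion. Only 1.81% of all WT peaks had as high a fold enrichment. The Cho mean was 17.8 ± 6.70 (SD, n = 2). The WT peak ran from 86135161 to 86135576.

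The site at −89.40 kb was intergenic too. Fold enrichment there was 8.87 in Cho 1, 17.7 in Cho 2, 11.1 in WT and 11.7 in the double deletion. Its scaled pileups were 14.6, 104.8, 72.1 and 68.7. WT and the double deletion were close to each other on both measures, with Cho 1 below and Cho 2 above them. Just beside it, at −87.88 kb, the 4 libraries had fold enrichments of 4.22, 9.12, 8.29 and 10.5 and scaled pileups of 6.58, 61.3, 52.7 and 62.3. Here the double deletion was the highest on both measures. In WT this site was split, with a further summit at −88.22 kb. At −81.34 kb the fold enrichment was 7.60, 9.85, 8.43 and 8.75. The strongest summit of Cho 1 lay at −82.34 kb, so its value there is from another summit than the rest, and its peak at −81.34 kb had a fold enrichment of 4.65. The Cho means of these 3 sites were 13.3 ± 6.25, 6.67 ± 3.46 and 8.72 ± 1.59 (SD, n = 2).

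Inside Acan a single site was called in all 4 libraries, in intron 1. Its fold enrichment was 2.96 in Cho 1, 9.46 in Cho 2, 9.57 in WT and 11.1 in the double deletion. Scaled pileups were 4.39, 64.9, 47.2 and 44.7. Cho 1 was far below the other libraries on both measures. Its pileup of 6 reads was the smallest called in that library. The summits lay at +27.47, +27.49 and +27.49 kb in Cho 1, WT and the double deletion. In Cho 2 a broad peak from +26.71 to +27.58 kb had its summit at +26.90 kb, near a second and weaker summit of WT at +26.80 kb and of the double deletion at +26.95 kb. The Cho mean, 6.21 ± 4.60 (SD, n = 2), therefore joins different summits.

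The remaining 3 shared sites were downstream. The strongest lay at the Mfge8 promoter, at +95.64 kb in WT. Its fold enrichment was 20.7 in Cho 1, 26.6 in Cho 2, 16.6 in WT and 18.7 in the double deletion, and the scaled pileups were 35.1, 111.9, 97.1 and 95.8. It was the strongest peak of the window in Cho 1 and the double deletion by both measures. The Cho mean was 23.6 ± 4.18 (SD, n = 2). A site in an intron of Mfge8 at +86.93 kb had fold enrichments of 5.07, 6.43, 5.15 and 9.22. The intergenic site at +157.10 kb had 4.22, 6.43, 7.35 and 12.3. At the latter pair the double deletion had the highest fold enrichment and the Cho replicates were close together, with means of 5.75 ± 0.96 and 5.32 ± 1.56 (SD, n = 2).

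**Figure D3:**
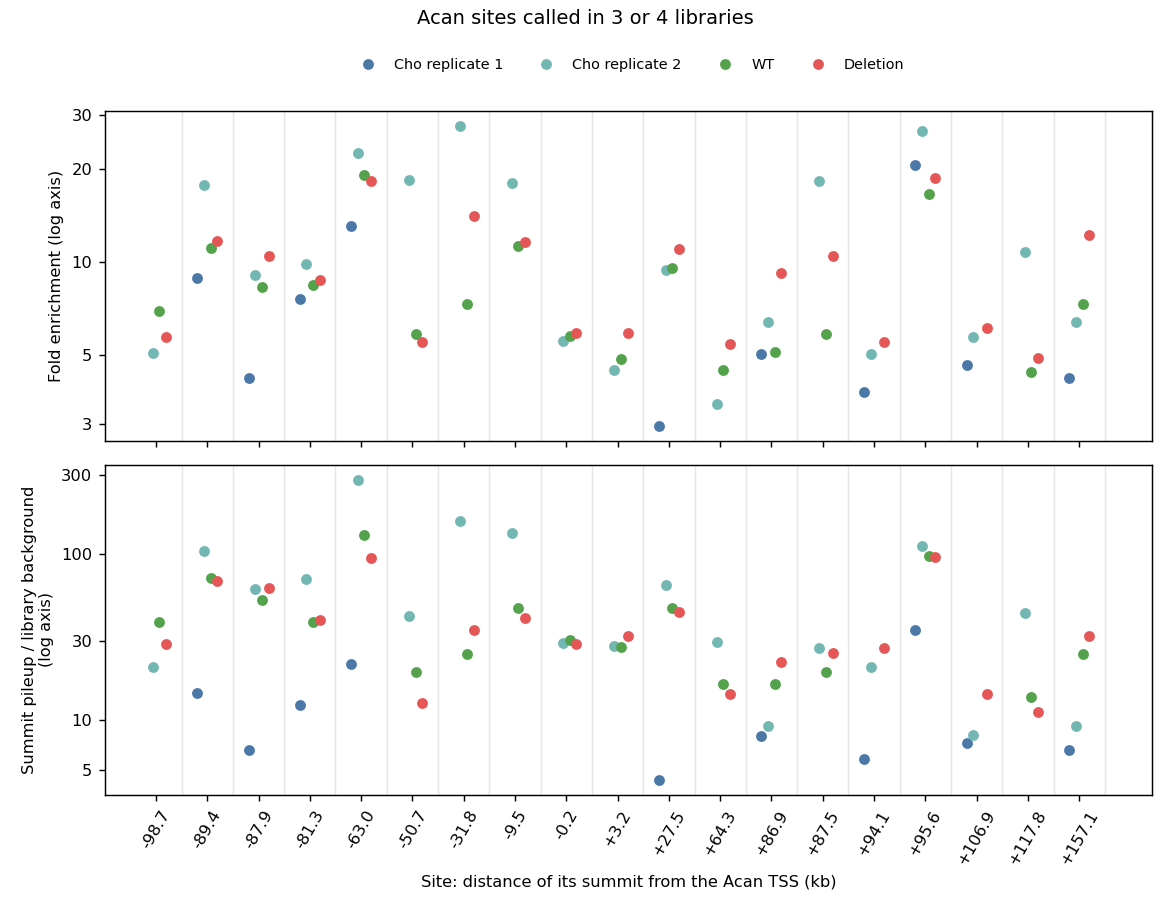
Values of the 19 sites called in 3 or 4 libraries. Sites are ordered along the horizontal axis by distance from the Acan TSS in kb, and each point is 1 library, with fold enrichment above and summit pileup over library background below, both on log axes. A missing point means that no peak was called. Cho 1 is the lowest at each site where it has a point in the lower panel, and WT and the double deletion lie close together at most sites.

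At the promoter of Acan the peaks were modest. In Cho 1 the nearest 2 kb on either side of the TSS had no summit. The fold enrichment was 5.58 in Cho 2, 5.76 in WT and 5.92 in the double deletion, and the scaled pileups were 29.1, 30.5 and 28.7. The 3 libraries with a call differed little here. The summits lay between −0.24 and −0.22 kb, and that of WT was in an exon of Gm16936. The open region is thus close to the start sites of a diverging pair of genes and cannot be assigned to either. In WT 67.8% of all peaks had as high a fold enrichment. Genome-wide, 58.5% of 18217 promoters had a peak in Cho 1, 64.8% in Cho 2, 62% in WT and 67.8% in the double deletion.

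The WT peaks at −9.50, −10.60 and −31.85 kb, all inside Gm16936, had no counterpart in Cho 1. The known enhancer about 10 kb upstream was represented by the strongest peak within 1.5 kb of that distance. In WT it was at −9.50 kb, from 86188743 to 86188992, with a fold enrichment of 11.3. The double deletion had 11.6 there. Cho 2 had a single broad peak from −11.0 to −9.27 kb, with a fold enrichment of 18.0. Scaled pileups were 134.9 in Cho 2, 47.2 in WT and 41.5 in the double deletion. The neighbouring summit at −10.60 kb had a fold enrichment of 4.46 in WT and 9.99 in the double deletion, and Cho 2 joined it to the broad peak.

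At −31.85 kb, in an intron of Gm16936, Cho 2 had its highest fold enrichment of the window, 27.5. The value was 7.35 in WT and 14.1 in the double deletion. Scaled pileups were 158.9, 24.97 and 35.1. Cho 2 was far above the others on both measures, and 3.42% of all its peaks had as high a fold enrichment. The WT pileup behind this value was 9 reads. At −50.75 kb the fold enrichment was 18.4 in Cho 2, 5.88 in WT and 5.53 in the double deletion. At +87.54 kb, in an intron of Mfge8, it was 18.3, 5.88 and 10.5. These sites had ranks of 4 and 5 in Cho 2 by fold enrichment and of 13 and 25 by scaled pileup, so their place in the order depends on the measure.

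The weakest of the sites called in 3 libraries included one in intron 1 of Acan at +3.19 kb, with 4.48 in Cho 2, 4.88 in WT and 5.89 in the double deletion. Cho 1 lacked a call at 9 of the 11 sites found in 3 libraries, and WT at the other 2, at +94.14 and +106.90 kb in the double deletion. Of the 21 WT peaks, 8 were overlapped by a peak of Cho 1 (38.1%, 95% exact interval 18.1% to 61.6%), against 57.7% of all WT peaks. Of the 41 deletion peaks, 11 were (26.8%, 14.2% to 42.9%), against 43.1% of all deletion peaks. In the other direction, WT held 8 of the 13 Cho 1 peaks (61.5%, 31.6% to 86.1%) against 58.7% of all, and the double deletion 11 of 13 (84.6%, 54.6% to 98.1%) against 80.8%. All but the share of deletion peaks have intervals that include the share of the whole list, and these intervals cover counting error only.

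The next question was whether chromatin at Acan, a target of Sox9, differed in the library that lacks E160 and E308. Of the 21 WT peaks, 20 were overlapped by a peak of the double deletion (95.2%, 76.2% to 99.9%), against 95.9% of all WT peaks. The exception was a weak peak in an intron of Hapln3 at +64.32 kb, with a fold enrichment of 4.48 and a pileup of 6, and the double deletion had a peak of 5.43 close by at +64.46 kb. Of the 41 deletion peaks, 19 were overlapped by a WT peak (46.3%, 30.7% to 62.6%), against 49.4% of all deletion peaks. Both shares were close to those of the whole lists.

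At the 20 shared WT peaks the scaled pileup was higher in the double deletion at 10 and lower at 10. In these pairs 2 deletion peaks were each used for 2 WT peaks, so some pairs set different summits against each other. With 1 pair per deletion peak, 8 of 18 were higher and 10 lower. Over the 20 peaks the median log2 ratio of deletion to WT was 0.01, and it was −0.01 over all 87274 shared peaks and −0.17 over shared promoter peaks. The ratios ran from −0.60 to 1.08 on the log2 scale. For none of the 20 peaks did the counting interval of its ratio exclude 1. The WT pileups of 5 to 47 reads leave these intervals wide, so a change of moderate size at a given site was not detectable at this depth.

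At −62.98 kb, the site with the SOX pair, the pileup was 47 reads in WT and 59 in the double deletion. This gives a scaled ratio of 0.723 (0.484 to 1.08), while the fold enrichments differed by a ratio of 0.955. At the Mfge8 promoter, 35 and 60 reads gave a ratio of 0.987 (0.640 to 1.54). At −9.50 kb, 17 and 26 reads gave 0.881 (0.460 to 1.73). At the promoter of Acan, 11 and 18 reads gave 0.942 (0.421 to 2.21). In intron 1, 17 and 28 reads gave 0.948 (0.501 to 1.85). These 5 ratios of scaled pileup were all below 1 and all within counting error of it. By fold enrichment the last 4 were above 1, at 1.12, 1.03, 1.03 and 1.16 in the same order, so the direction depends on the measure.

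A single peak passed a 2-fold ratio. At −10.60 kb, 6 reads in WT and 22 in the double deletion gave a scaled pileup of 16.6 and 35.1, a ratio of 2.11 (0.830 to 6.36). Its ratio was 2.24 by fold enrichment and 1.95 by tag depth, where it no longer passed. Of all shared peaks, 3.6% were at least 2-fold higher in the double deletion by scaled pileup and 1.42% at least 2-fold lower. By fold enrichment the shares were 7.79% and 0.071%, and by tag depth 2.47% and 2.24%. So 1 higher and 0 lower of 20 is close to what the whole lists show.

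**Figure D4:**
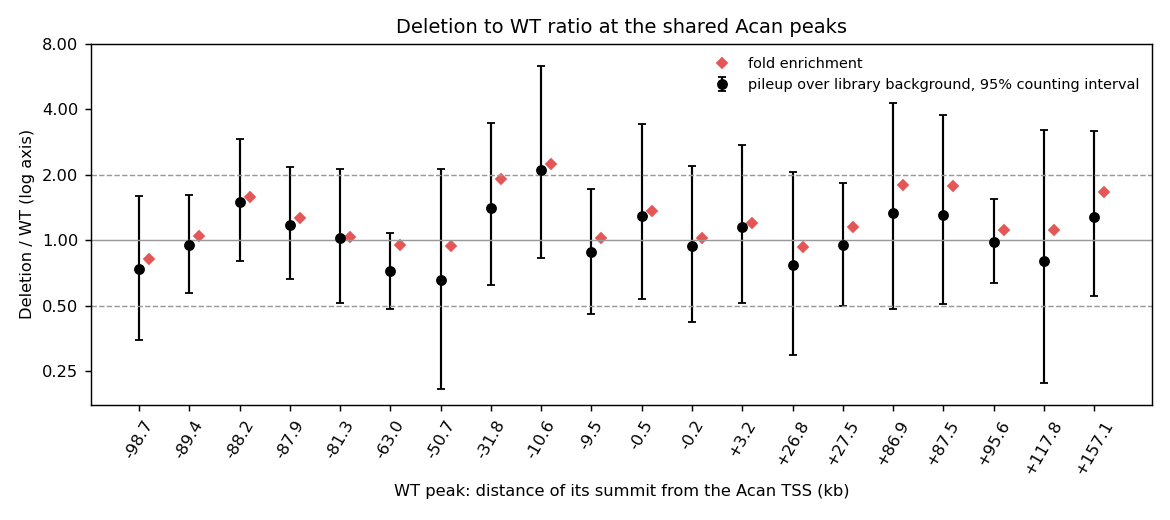
Ratio of the double deletion to WT at the 20 WT peaks of the window that a deletion peak overlapped. The WT peaks at −88.22 and −87.88 kb share 1 deletion peak, and so do those at −0.48 and −0.22 kb. Black points are ratios of summit pileup over library background with 95% counting intervals, red diamonds are ratios of fold enrichment, the vertical axis is on a log scale, and the dashed lines mark 2-fold. The interval of each peak includes 1, and only the point at −10.6 kb lies above 2-fold.

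The double deletion had 22 peaks that overlapped no WT peak. Of these, 16 met a peak of Cho 2 and 3 of those also one of Cho 1. The same shares over all deletion peaks without a WT peak were not taken, so nothing particular to Acan can be read from these counts. The fold enrichments of the 22 peaks ran from 3.39 to 9.22 and their pileups from 5 to 17 reads. The highest was at +108.63 kb, intergenic, with a fold enrichment of 9.22 and a pileup of 14. The next was at +156.77 kb, intergenic, with 8.07 and a pileup of 13. The third, at +77.54 kb, was the promoter of Hapln3, with 7.88 and a pileup of 13, and Cho 2 had 10.3 at the same place. Neither of the first pair met a peak in either Cho library. The other 4 peaks found in the double deletion alone were at −80.03, −68.52, +40.60 and +150.24 kb, with fold enrichments of 4.47, 3.69, 3.61 and 4.30. The peak at +40.60 kb lay in an exon of Acan. The double deletion was deeper than WT, and the smallest pileup called was 4 in both. The part of depth in these 22 peaks was not tested.

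The 24 sites called in Cho 2 alone had a median fold enrichment of 4.12, from 2.16 to 13.5, and scaled pileups from 5.62 to 89.9. Of these, 8 lay inside Acan, 9 upstream and 7 downstream. The 9 upstream include the site at −100.22 kb, where the other libraries had peaks just outside their windows. Those inside Acan were weak, with fold enrichments of 2.16 to 5.64, and 5 of them were in intron 1. The strongest of the 24 by fold enrichment was at +149.04 kb, with 13.5 and a scaled pileup of 19.9. By scaled pileup it was the one at −66.90 kb, close to the site with the SOX pair, with 89.9 and a fold enrichment of 7.47. The measures thus put different sites first.

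A further 12 sites were called in Cho 2 and the double deletion but in neither WT nor Cho 1. Their median fold enrichment was 8.05 in Cho 2 and 5.18 in the double deletion, and their median scaled pileups were 21.2 and 14.4. A neighbouring pair in an intron of Gm16936, at −26.66 and −24.12 kb, had 13.6 and 12.6 in Cho 2 and 4.92 at each in the double deletion. Just past the Hapln3 promoter, at +80.11 kb, the values were 7.67 and 7.40, nearly equal in the 2 libraries. The RefSeq start of Hapln3 used for Cho 2 lay further out than the TSS given above. In the gene lists below, the peak of 7.67 was therefore its promoter peak in Cho 2. At +118.49 kb the values were 13.4 and 6.15. A place with no call has no value in the lists, so the WT level at these sites is not known, and the part of depth in the missing calls was not tested.

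Motifs were counted around the 21 WT summits, in narrow windows with 25 bp on either side and in wide windows with 75 bp on either side. The SOX core (ACAAAG or ACAATG) was in 1 narrow window, at −62.98 kb, and 4.02% of the narrow windows of all WT peaks held it. It was in 2 wide windows, the second at +26.80 kb in intron 1, and in 12.98% of all. The SOX pair (ACAANG and CNTTGT in either order with 3 to 5 bases between) was in 1 at both widths, and in 0.175% of all wide windows. A core inside a pair counts for both. RUNX (TGNGGT), a loose form of the motif of factors such as Runx2, was in 5 narrow windows (12.6% of all) and in 13 wide ones (32.2% of all). The usual core is TGTGGT or TGCGGT, and the pattern also takes in TGGGGT and TGAGGT. Only such looser matches were found in the wide windows at −87.88, −31.85, −9.50, +26.80, +86.93, +87.54 and +117.79 kb. The other windows with a match held the usual core. The shares of all windows include looser matches too. The windows of neighbouring summits share a region, and the difference between the RUNX counts and these shares was not tested.

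AP-1 (TGANTCA), a loose form of the motif of Fos and Jun proteins, was in none of the narrow windows (7.80% of all) and in 3 wide ones (17.3%), at −10.60, +86.93 and +157.10 kb. The usual element has G or C as its middle base, as at +86.93 kb (TGAGTCA) and +157.10 kb (TGACTCA). The match at −10.60 kb, TGATTCA, does not, and the shares of all windows include such looser matches. TEAD (GGAATG) was in 3 and 4 windows at the narrower and wider width (5.57% and 14.3% of all). NFAT (GGAAAA) was in 1 and 1 (3.88% and 12.4%), the E-box (CANNTG) in 4 and 11 (21.9% and 52.8%) and the GC box in 2 and 3 (7.19% and 15.9%). All motifs were searched on both strands. The G and C content of the wide windows had a median of 56.3%, from 41.7% to 76.2%, and 52.3% over all WT peaks.

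Genes whose products work with aggrecan were compared by whether a summit lay within 1 kb of their TSS. Of the 4 lecticans, the family of hyaluronan-binding proteoglycans to which aggrecan belongs, 1 had such a peak in Cho 1, 3 in Cho 2, 2 in WT and 4 in the double deletion. Vcan, which encodes versican, was the lectican with a peak in all 4, with fold enrichments of 13.5, 5.20, 6.64 and 5.65. Its scaled pileups were 22.7, 23.0, 52.7 and 43.1, so the order of the libraries depends on the measure. Bcan and Ncan, lecticans of the nervous system, had promoter peaks of 4.47 and 4.92 in the double deletion and none in WT or Cho 1, and Bcan also had one of 9.92 in Cho 2. Of the 8 genes for hyaluronan synthesis, link proteins and the hyaluronan receptor Cd44, 5, 6, 5 and 7 had a promoter peak in Cho 1, Cho 2, WT and the double deletion. Hapln1, the link protein of cartilage, had fold enrichments of 11.0, 10.9, 8.12 and 7.45, and scaled pileups of 18.3, 106.8, 61.0 and 49.5. By the latter Cho 1 was the lowest. All 6 genes for enzymes that cut aggrecan, Adamts1, Adamts4, Adamts5, Adamts9, Adamts15 and Mmp13, had a promoter peak in all 4 libraries.

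Of 9 cartilage matrix genes, 4, 8, 8 and 8 had a promoter peak. Comp, a matrix protein of cartilage and tendon, had none in any library. Matn3, encoding a matrilin, had 8.02 in Cho 1 and 19.9, 20.6 and 18.8 in Cho 2, WT and the double deletion. Of the Sox trio, Sox9 and Sox6 had a promoter peak in all 4 libraries, and Sox5 in all but Cho 1. Sox5 had 6.81, 5.15 and 6.24 in the other 3. Against the promoter shares of all genes given above, the enzymes lay above the background in all 4 libraries. The cartilage genes did so outside Cho 1, and the lecticans only in Cho 2 and the double deletion. The hyaluronan and link protein list was near it in Cho 1 and WT, at 5 of 8 against 58.5% and 62%. The Sox trio was near it in Cho 1, at 2 of 3. Both lay above it in the other libraries. In lists this short a single gene weighs heavily, and they carry no test.

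The label of the cells was checked against promoters of marker genes, which show open chromatin and not expression. Of 8 chondrocyte markers, 3 had a promoter peak in Cho 1 and 7 in each of the other libraries. Of 5 fibroblast or osteoblast markers, 4, 5, 4 and 5 had one, among them Col1a1 in all libraries. Of 4 endothelial markers, 3, 2, 3 and 3 had one, and Cdh5 had none in any. Of the 3 blood markers found, 0, 1, 0 and 1 had one, and Ptprc had none. Of 4 muscle markers, 0, 1, 1 and 2 had one, and of 3 keratinocyte markers none had one in any library. Over all promoters the shares were 58.5%, 64.8%, 62% and 67.8%, as above. The chondrocyte list lay above this share in 3 libraries and below it in Cho 1. The fibroblast or osteoblast list lay above it in all 4 libraries, and the endothelial list in all but Cho 2. These markers do not set chondrocytes apart from fibroblasts, osteoblasts or endothelial cells here. The part of other cells in the Acan values was not tested.

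The borders of the window were not empty. At the upstream border, Cho 2 had a peak of 12.7 at −100.22 kb, which was inside the window because the GRCm38 annotation starts Acan further upstream. Peaks of 15.6 in Cho 1 at −100.35 kb, 9.78 in WT at −100.49 kb and 12.1 in the double deletion at −100.43 kb lay just outside. With a flank 1 kb longer they formed a ninth site called in all 4 libraries. At the downstream border the last member lay at +157.10 kb in WT, and the next peaks were near +163.96 kb, with 7.35 in WT and 13.5 in the double deletion.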

How the data were processed

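ATAC-Seq peak lists of 4 libraries were used. Per the labels, the authors used fastp, Bowtie2 2.4.4, Picard 2.20.7 (the methods name another version) and SAMtools 1.9, and called peaks with MACS2 2.2.4 at a q-value of 0.05. For each peak the deposited lists give the fold enrichment, a ratio of the reads at the summit to the background. The deposited −log10 p-value and −log10 q-value belong to each peak within its list, and the deposited score is derived from the q-value. Depth and list sizes are given above; intervals cover counting error only, since reads carry no molecular identifiers.

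The strongest summit of each interval was kept. Cho 1, WT and the deletion list were read as NCBIM37 with GENCODE genes. Cho 2 was read as GRCm38 with RefSeq genes, although mm9 is named, and was joined by distance from the TSS. Start and end coordinates of Gm16936, the end coordinates of Acan and Mfge8, and the single exact matches of 3 promoters gave the same shift of 7144886 bp between builds. The start coordinates of Acan and Mfge8 differ between the annotations and gave 7145143 and 7144887 bp. Summit pileups were found as the whole number that gives both the fold enrichment and the Poisson p-value of a peak (tolerance 0.01 on the log10 scale), for 100% of peaks, which was tested on simulated data. Ratios have 95% conditional binomial intervals, shares exact (Clopper-Pearson) ones. An overlap was 1 bp or more.

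Named sites were the Acan promoter peak, sites called in all 4 libraries, the 5 strongest peaks of each library, the strongest near 10 kb upstream, and the 3 strongest WT and deletion peaks without an overlap in the other library. A few further sites, at −50.75, +3.19 and +87.54 kb among them, complete the sites called in 1 to 3 libraries and were named after their values were seen. The members, lists and motifs were chosen with earlier results of these data known. No test across groups was made. Spi1 was not matched by symbol. Python 3.11.15, numpy 2.4.6, pandas 2.3.3, scipy 1.17.1 and matplotlib 3.10.9 were used.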

Additional observations from a re-analysis of the deposited data

How the results depend on the processing

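Of 50 alternative values, 33 stayed within the spread or within 1.5 times of the values reported and 17 moved. With a flank of 50 kb the window held 6 peaks in Cho 1, 35 in Cho 2, 12 in WT and 23 in the double deletion, and 3 sites were called in all 4, which follows from the smaller window. At q below 1e-5, Cho 1 kept 5 peaks and 4 sites were called in all 4 libraries. With equal numbers of strongest peaks, Cho 2 had 21 and the double deletion 16. Then 12 of 17 WT peaks (70.6%) and 11 of 16 deletion peaks (68.8%) were overlapped, because weaker peaks are left out by construction. By tag depth 0 peaks passed 2-fold. The median log2 ratio of deletion to WT was 0.19 by fold enrichment, −0.10 by tag depth, 0.18 when scaled to shared promoters, 0.20 with a flank of 50 kb and −0.04 with 1 pair per deletion peak. The last, like the windows set by 1 distance and by a flank 1 kb longer, with 8 and 9 sites called in all 4, was chosen after the data were seen. The median Cho mean over the sites called in all 4 libraries was 7.70 by fold enrichment and 38.1 by scaled pileup, another unit. Leaving out 1 Cho replicate gave 6.33 to 9.66. With 75 bp in place of 25 bp on either side of the summit, 2 windows held the SOX core, 3 AP-1, 13 RUNX and 11 an E-box, as wider windows hold more. No paired analysis was possible because there was a single library of WT and a single library of the double deletion. Pileups of 5 to 47 reads at the WT peaks limit the ratios.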
